A study of Mus musculus with 8 samples.

Results

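Fibulins, fibrillins and latent TGFβ binding proteins (LTBPs) were followed by RNA-seq in cells of mouse pancreatic ductal adenocarcinoma (PDAC). The family was taken by gene symbol as 10 of the 53465 genes in the count table, namely the fibulin genes *Fbln1*, *Fbln2*, *Fbln5* and *Efemp2* (fibulin-4), the fibrillin genes *Fbn1* and *Fbn2*, and the LTBP genes *Ltbp1*, *Ltbp2*, *Ltbp3* and *Ltbp4*. On GRCm38, the genes that the results turn on lie at chr6:91212455-91272540 (*Fbln2*, plus strand), chr2:125300594-125507993 (*Fbn1*, minus), chr12:84783212-84876532 (*Ltbp2*, minus), chr15:85205949-85286535 (*Fbln1*, plus) and chr12:101746565-101819055 (*Fbln5*, minus). Of the 10, 9 were among the 14301 genes with enough counts to test. *Fbn2* was not tested, because all 8 libraries had 0 counts for it. That allows a level of up to 0.125 to 0.162 CPM (counts scaled to a common library total) per library, the worth of 3 counts, which covers counting error only.

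Fibrillins polymerize outside the cell into microfibrils, on which elastin is laid down and to which LTBPs attach. TGFβ is secreted as a latent complex, and LTBP1, LTBP3 and LTBP4 bind it covalently through its propeptide, whereas LTBP2 binds fibrillin but not latent TGFβ. Fibulins bridge elastin, fibrillin, integrins and basement membranes. A ligand released from the complex acts through the type I receptor kinase, which phosphorylates SMAD2 and SMAD3, and these enter the nucleus with SMAD4.

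Lines B73 and B87 were each grown from a pancreatic tumor of a KC-shSmad4 mouse, a model with *Ptf1a*-Cre, rtTA3 at *Rosa26* and a GFP-linked short hairpin RNA (shRNA) against *Smad4* at *Col1a1*. The hairpin, and with it the loss of *Smad4*, depends on doxycycline (Dox), so cells cultured with Dox were Smad4 off, while those left 5 days without it were Smad4 on. Each state was treated for 24 h with 100 pM TGFβ1 or with 2.5 µM SB505124, which blocks the kinase of the type I TGFβ receptor. This gave 4 groups with 1 library from each line. Every comparison of *Smad4* states is also a comparison of Dox states, and every TGFβ1 library was set against a receptor block rather than untreated cells. The lines came from male mice, per the study's methods. Which *Smad4* hairpin each line carries, and the age of the mice at tumor collection, are not given in the sources used here.

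Total counts ran from 18389235 to 23440550 per library. *Smad4* stood at 33.7 to 35.5 CPM in the Smad4-off libraries and at 97.3 to 117 CPM in the Smad4-on libraries, so each library matched the *Smad4* state of its label. These values do not check the labels of treatment and line. The epithelial marker list, of which 6 of 6 genes were detected (more than 3 counts in any library), summed to 3867 to 6177 CPM in B73 and to 1169 to 2071 CPM in B87. Of these genes, *Epcam* was low, at 8 to 39 counts in B73 and 3 to 11 counts in B87. Of 8 fibroblast markers, 5 were detected, with *Lum* at 0 and *Dcn* at no more than 3 counts in each library. Their sum was 5.83 to 40.4 CPM in B73 and 51.5 to 668 CPM in B87, but the genes did not move together. *Col1a1* had 7 to 100 counts in B73 and 590 to 12305 in B87, whereas *Col1a2* had 36 to 59 and 0 to 5. *Col3a1* had 33 to 794 counts in B73 and 174 to 833 in B87. The 4 endothelial markers summed to 0.702 to 26.0 CPM, and the 4 leukocyte markers to 1.32 to 6.28 CPM with *Adgre1* and *Cd3e* at 0. In such bulk libraries, fewer cells of a type and less RNA per cell cannot be told apart.

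Promoters are shown for *Ltbp2*, the gene with the largest rise under TGFβ1, and for *Fbln1*, the gene that fell. RefSeq gave 16 promoter windows (250 bases upstream of a start, GRCm38.p6) for the 9 genes tested. Bases lying in an exon of the gene itself in GENCODE M21 were left out, which removed 41 bases next to the *Ltbp2* start and the whole windows of *Fbln2* and *Fbn1*. The full windows were searched on both strands for CAGAC, the core of SMAD-binding elements, and for TGANTCA, the AP-1 site, letters chosen after the expression values were seen. Capitals mark CAGAC or its complement GTCTG.
*Ltbp2*, chr12:84876533-84876741, minus strand: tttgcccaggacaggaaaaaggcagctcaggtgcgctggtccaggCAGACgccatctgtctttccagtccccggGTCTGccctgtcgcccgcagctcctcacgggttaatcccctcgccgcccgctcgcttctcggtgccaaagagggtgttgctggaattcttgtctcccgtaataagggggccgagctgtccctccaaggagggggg
*Fbln1*, chr15:85205699-85205948, plus strand: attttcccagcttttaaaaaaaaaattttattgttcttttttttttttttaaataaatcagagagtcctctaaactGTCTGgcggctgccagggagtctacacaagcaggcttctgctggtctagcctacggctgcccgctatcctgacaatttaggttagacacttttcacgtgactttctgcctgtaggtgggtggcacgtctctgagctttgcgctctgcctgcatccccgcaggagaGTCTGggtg
CAGAC ended 201 and 172 bases before the *Ltbp2* start at base 84876491 and 170 and 5 bases before the *Fbln1* start at base 85205949. Both genes thus held 2 copies. Whether these letters bear on the change of either gene was not tested. Among the 16 windows, 8 held CAGAC and 0 held TGANTCA, against 42.2% and 6.75% of all 32851 mouse promoter windows of that length. The *Ltbp2* gene overlaps the antisense gene *D030025P21Rik*, which had 0 to 24 counts per library.

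The family spanned a wide range of levels. Per kilobase of gene model, which allows genes to be compared, *Fbln2* was highest with a mean of 346 CPM per kilobase over the 8 libraries (45.2 to 995). It was followed by *Ltbp1* at 46.1 (27.2 to 73.2), *Ltbp3* at 41.7 (28.3 to 68.8) and *Efemp2* at 35.8 (28.5 to 43.4). *Fbn1* at 12.4 (0.806 to 48.4) and *Ltbp4* at 9.90 (5.85 to 15.8) came next, then *Fbln5* at 2.44 (0.296 to 7.37), *Ltbp2* at 2.32 (0.0670 to 11.3) and *Fbln1* at 0.850 (0.280 to 1.63). The ranges of all neighbours in this order overlapped, except that *Fbln1* lay above *Fbn2*, which was at 0. Within each library, however, *Fbln2* was the highest of the 10. It made up 28.5% of the family's summed CPM per kilobase in B73 with Smad4 off under SB505124 and 79.3% in B87 with Smad4 on under TGFβ1. Among all genes, its rank by CPM per kilobase moved from 1050 in the former library to 20 in the latter.

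**Figure D1:**
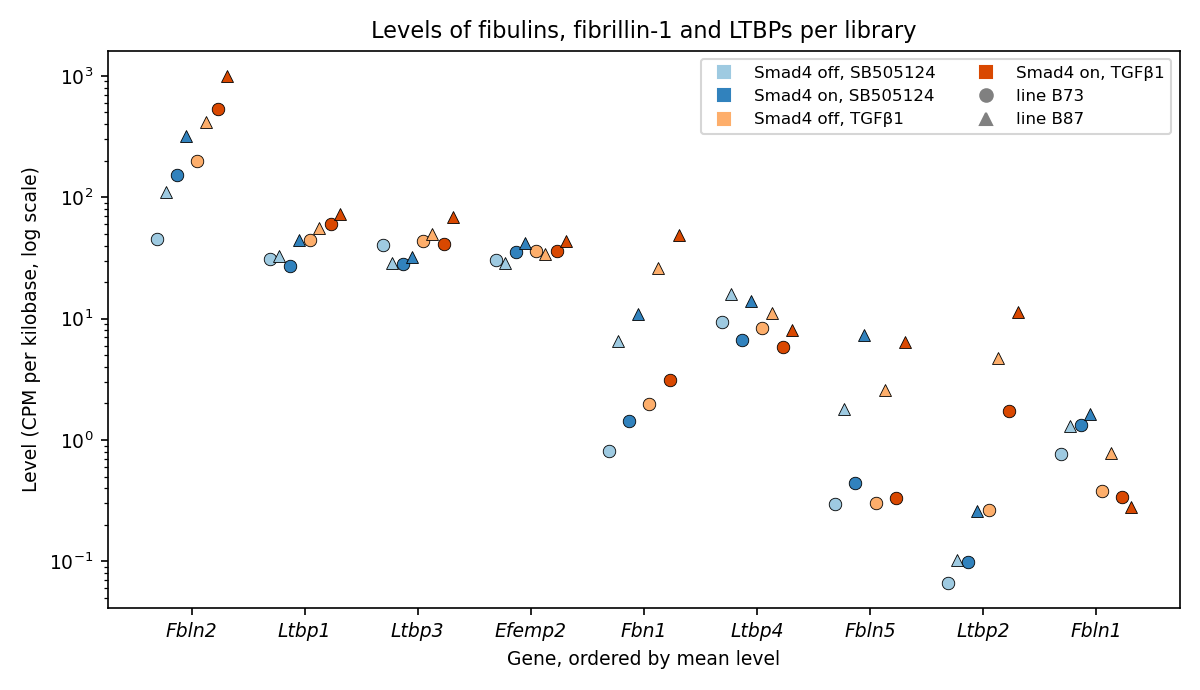
Level of the 9 detected genes in each of the 8 libraries, in CPM per kilobase of gene model on a log axis, with color for the group and shape for the line. *Fbln2* lies highest in every library (45.2 to 995 CPM per kilobase), *Fbn1* and *Fbln5* lie higher in B87 than in B73 in every group, and *Fbn2*, at 0 counts throughout, is not drawn.

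TGFβ1 changed 4 of the 9 genes in Smad4-on cells and 3 in Smad4-off cells. A gene was called when its edgeR adjusted p was under 0.05 and its change was more than 2-fold, in a model with the group and the cell line. In Smad4-on cells, *Fbln2*, *Fbn1* and *Ltbp2* were called higher under TGFβ1 than under SB505124 and *Fbln1* was called lower, that is 3 and 1 of 9 genes, where 5.62% and 8.31% of all tested genes were called higher and lower. In Smad4-off cells, *Fbln2*, *Fbn1* and *Ltbp2* were again called higher and 0 genes lower, against 3.11% and 2.82% of all genes. The median log2 fold change of the 9 genes was 0.85 with Smad4 on and 0.42 with Smad4 off, and that of all tested genes was −0.02 in both.

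*Smad4* restoration changed 1 of the 9 genes. *Fbln2* was called higher with Smad4 on than off, both under TGFβ1, where 1.31% of all genes were called higher and 1.8% lower, and under SB505124, where the shares were 0.636% and 0.455%. No other family gene was called in either comparison, and the median log2 fold change of the 9 was 0.42 under TGFβ1 and 0.54 under SB505124, against −0.01 and 0.00 for all genes. The interaction, which asks whether the *Smad4* effect differed between the treatments, was called for 0 of the 9 genes by edgeR, with 1 at an unadjusted p under 0.05, for 0 by DESeq2, and for 0.0559% (higher) and 0.133% (lower) of all genes. The comparisons share libraries, so they are not independent of each other.

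**Figure D2:**
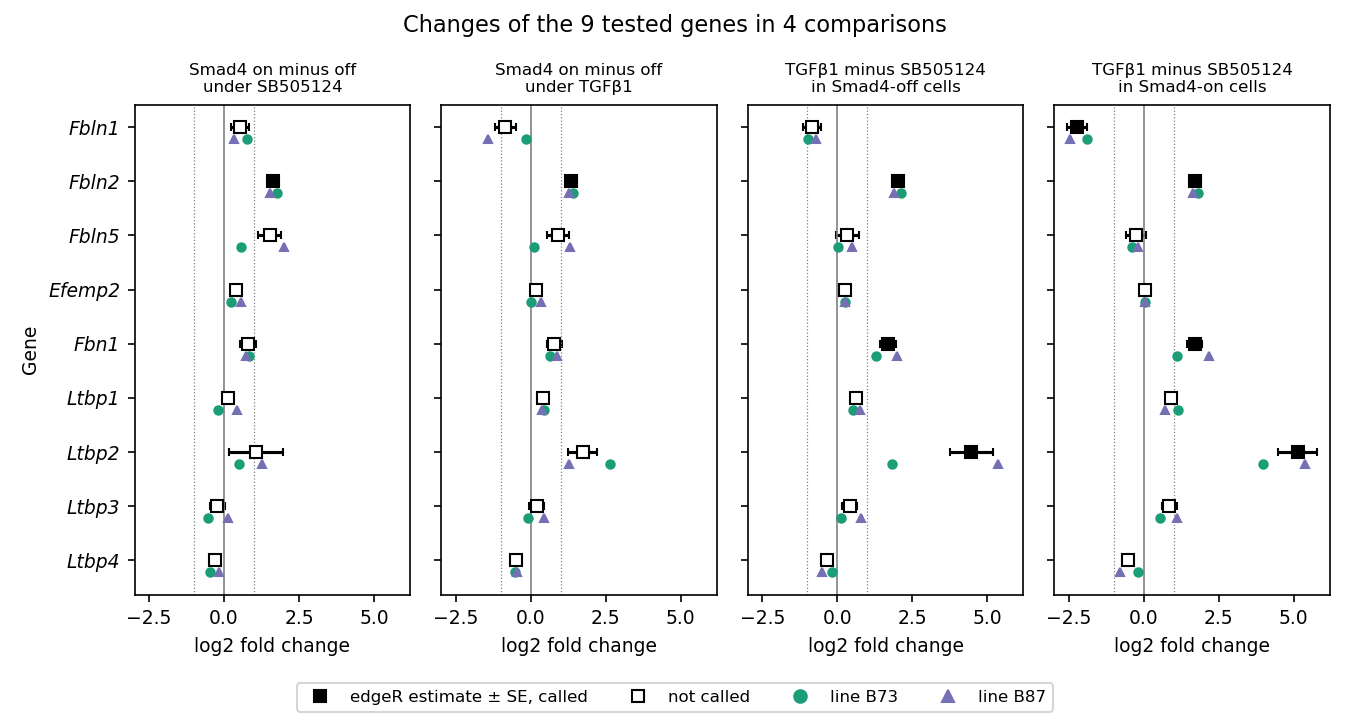
Log2 fold changes of the 9 tested genes in 4 comparisons, with the edgeR estimate and its standard error as squares, filled where called, and the change in each line as circles (B73) and triangles (B87). Dotted lines mark 2-fold. *Fbln2* is called in all 4 comparisons, *Fbn1* and *Ltbp2* in both TGFβ1 comparisons, and *Fbln1* in TGFβ1 against SB505124 in Smad4-on cells.

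*Fbln2* encodes fibulin-2, which binds fibrillin, fibronectin and basement membrane proteins. In B73, its level was 288 CPM with Smad4 off and 978 CPM with Smad4 on under SB505124, and 1270.3 and 3394 CPM under TGFβ1. In B87, the same 4 libraries gave 703, 2029.7, 2631 and 6338 CPM. Each step, to Smad4 on or to TGFβ1, went with a higher level in each line, the groups of each of the 4 comparisons did not overlap, and B87 was higher than B73 in all 4 conditions. From Smad4 off under SB505124 to Smad4 on under TGFβ1, the level rose 11.8-fold in B73 and 9.01-fold in B87.

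*Smad4* restoration raised *Fbln2* by 1.35 ± 0.11 (log2 fold change ± SE, 2 lines) in the presence of TGFβ1 (edgeR adjusted p = 0.00181). With SB505124 the rise was 1.64 ± 0.11 (edgeR adjusted p = 0.00316). TGFβ1 raised it by 1.72 ± 0.11 in Smad4-on cells (edgeR adjusted p = 0.000147) and by 2.02 ± 0.11 in Smad4-off cells (edgeR adjusted p = 0.000386). The effects in the single lines were close, at 1.42 (B73) and 1.27 (B87) for *Smad4* under TGFβ1 and at 1.76 and 1.53 under SB505124. The interaction, the effect under TGFβ1 minus that under the receptor block, was −0.30 ± 0.16 and was not called (edgeR adjusted p = 0.572). These calls needed the line in the model. Without it, the edgeR adjusted p was 0.448 and 0.901 for *Smad4* under TGFβ1 and SB505124, and 0.128 and 0.195 for TGFβ1 in Smad4-on and Smad4-off cells, the highest of the 15 alternatives in each case, of which the lowest were 4.89e-29, 2.96e-42, 8.46e-49 and 8.52e-66. Of the 5 tested fibroblast markers, *Col1a1* alone was called in these comparisons, higher in all 4 (log2 fold changes 1.78, 2.08, 2.43 and 2.73). Its part in the changes of *Fbln2* was not tested, and its locus carries the hairpin cassette in these mice.

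**Figure D3:**
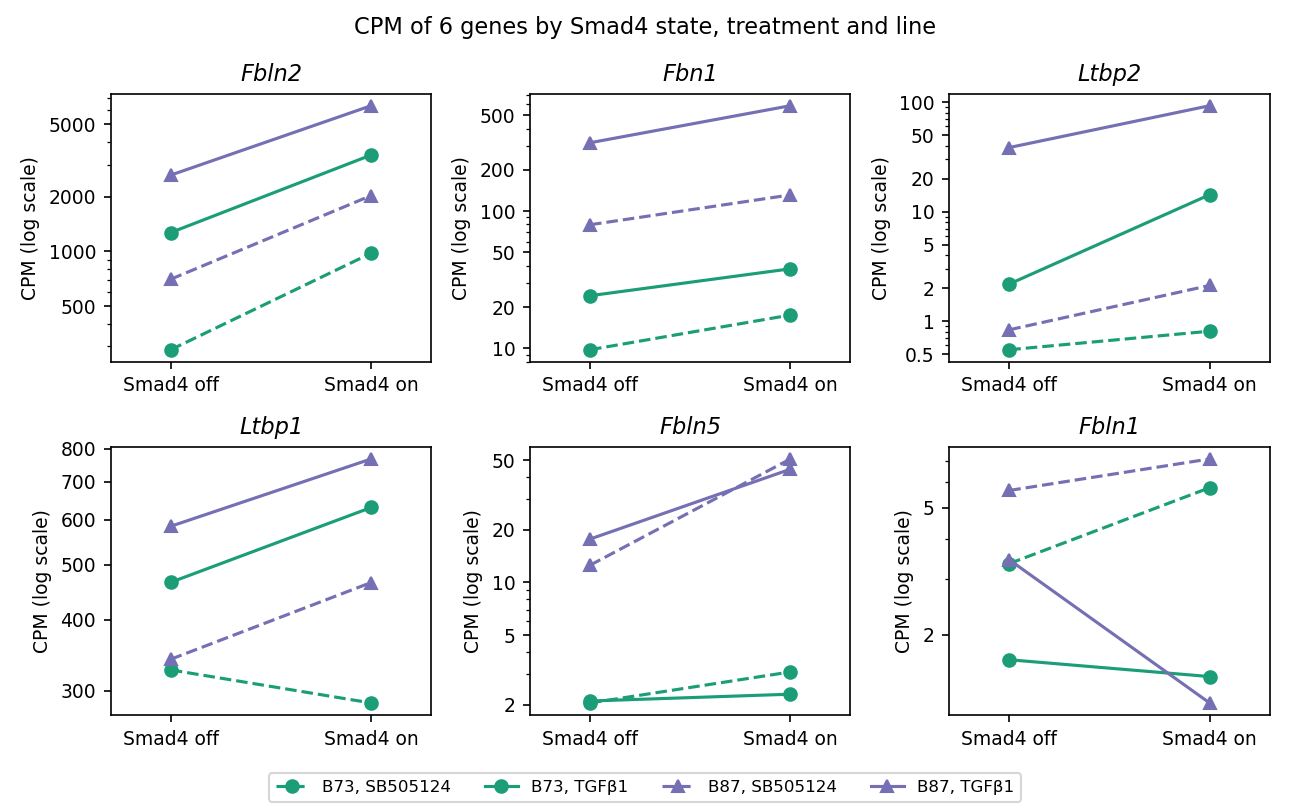
CPM of 6 genes on log axes, 1 panel per gene, with points for single libraries and lines joining Smad4-off and Smad4-on libraries of the same cell line and treatment. *Fbln2* rises along all 4 joined pairs, *Fbn1* and *Ltbp2* lie higher under TGFβ1 in both lines, and *Fbln1* lies lower under TGFβ1 in both.

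*Fbn1* encodes fibrillin-1, the main structural protein of adult microfibrils. In B73, it had 9.77 CPM (Smad4 off) and 17.5 CPM (Smad4 on) under SB505124, and 24.2 and 38.0 CPM under TGFβ1. In B87, the corresponding values were 79.6, 131, 315 and 587 CPM. All B87 libraries lay above all B73 libraries, and within each line both TGFβ1 libraries lay above both SB505124 libraries. TGFβ1 raised *Fbn1* by 1.70 ± 0.25 (log2, SE) in Smad4-on cells (edgeR adjusted p = 0.0029) and by 1.70 ± 0.26 in Smad4-off cells (edgeR adjusted p = 0.00787). In Smad4-off cells, leaving out the B87 SB505124 or the B87 TGFβ1 library kept a rise of 1.40 or 1.49 that no longer passed (edgeR adjusted p = 0.0774 and 0.0726, and 2.26e-09 to 0.699 over 15 alternatives). In the single lines the rise was 1.30 (B73) and 1.98 (B87). In Smad4-on cells the call was lost only in the fits without the line (0.5 with edgeR, and 4.97e-10 to 0.5 over the alternatives). For *Smad4* restoration, the *Fbn1* difference was 0.79 ± 0.24 in TGFβ1 (edgeR adjusted p = 0.102) and 0.79 ± 0.26 in SB505124 (edgeR adjusted p = 0.262), positive in each line but not called. DESeq2 with the line put these at adjusted p = 0.0158 and 0.048, below 2-fold, within ranges of 0.000999 to 0.935 and 0.00417 to 1 over 15 alternatives.

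*Ltbp2*, whose product binds fibrillin-1 and fibulin-5, had the largest fold change in the family. In B73, it had 0.549 CPM (11 counts) with Smad4 off and 0.810 CPM (15 counts) with Smad4 on under SB505124, and 2.18 CPM (51 counts) and 14.3 CPM (280 counts) under TGFβ1. In B87, it had 0.834 CPM (19 counts), 2.12 CPM (51 counts), 38.5 CPM (774 counts) and 92.8 CPM (1822 counts) in the same order. The 4 TGFβ1 libraries lay above the 4 SB505124 libraries, the lowest of the former (2.18 CPM) by little. TGFβ1 raised *Ltbp2* by 5.13 ± 0.65 (log2, SE) in Smad4-on cells (edgeR adjusted p = 0.00161) and by 4.48 ± 0.73 in Smad4-off cells (edgeR adjusted p = 0.0106). The former was lost only in edgeR without the line (0.0831, and 3.34e-11 to 0.0831 over 15 alternatives). In Smad4-off cells the lines differed in size, with 1.82 in B73 and 5.38 in B87, and the rise was 2.74 without the B87 SB505124 library and 3.00 without the B87 TGFβ1 library, neither of which passed (edgeR adjusted p = 0.150 and 0.0716, and 1.37e-08 to 0.209 over 15 alternatives). *Smad4* restoration under TGFβ1 gave 1.73 ± 0.49 (edgeR adjusted p = 0.0853), with 2.66 in B73 and 1.27 in B87. It was not called, but was called when no filter on low counts was set or when the 4 TGFβ1 libraries were fitted alone (adjusted p from 0.00014 to 0.797 over 15 alternatives).

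For the LTBPs that bind latent TGFβ, the fitted changes over both lines were below 2-fold. *Ltbp1* had 326, 286, 466 and 630 CPM in B73 and 341, 465, 584 and 767 CPM in B87, in the order Smad4 off and on under SB505124 and Smad4 off and on under TGFβ1. Both TGFβ1 libraries exceeded both SB505124 libraries in each line. The change with TGFβ1 was 0.92 ± 0.14 (log2, SE) in Smad4-on cells (edgeR adjusted p = 0.00365) and 0.64 ± 0.14 in Smad4-off cells (edgeR adjusted p = 0.0314). With Smad4 on, the single lines gave 1.14 (B73) and 0.72 (B87). The change in Smad4-off cells no longer passed without the B73 TGFβ1, the B87 SB505124 or the B87 TGFβ1 library of that state (0.152 to 0.154, and 0.000151 to 0.256 over 15 alternatives). *Smad4* restoration gave 0.42 under TGFβ1 (edgeR adjusted p = 0.142) and 0.13 under SB505124 (edgeR adjusted p = 0.772). *Ltbp3* had 211, 147, 228 and 213 CPM in B73 and 150.1, 167, 259.9 and 357 CPM in B87. Its change with TGFβ1 in Smad4-on cells was 0.85 ± 0.25 (edgeR adjusted p = 0.0373, and 0.000158 to 0.227 over 15 alternatives), with 0.54 in B73 and 1.10 in B87. Neither gene was called in the 4 comparisons, but leaving out 1 library took each past 2-fold with Smad4 on. *Ltbp1* was called without the B87 SB505124 library (1.17, edgeR adjusted p = 0.00322) and *Ltbp3* without the B73 TGFβ1 library (1.20, edgeR adjusted p = 0.0118). Without any of the other 3 Smad4-on libraries, or without either Smad4-off TGFβ1 library, *Ltbp3* did not pass, with changes of 0.42 to 0.86 (log2). *Ltbp4* had 60.6, 43.4, 53.6 and 37.8 CPM in B73 and 102, 90.6, 71.4 and 52.2 CPM in B87. Within each line and treatment, Smad4-on cells had less *Ltbp4* than Smad4-off cells, with differences of −0.48 ± 0.16 in TGFβ1 (edgeR adjusted p = 0.13) and −0.31 ± 0.16 in SB505124 (edgeR adjusted p = 0.479), and neither passed the test. TGFβ1 gave −0.51 ± 0.16 in Smad4-on cells (edgeR adjusted p = 0.0462, passing in 7 of 15 alternatives, 0.00542 to 0.402). Without the fold rule, *Ltbp1*, *Ltbp3* and *Ltbp4* thus passed in Smad4-on cells, where 33.2% of all genes did, and *Ltbp1* in Smad4-off cells, where 13.2% did.

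*Fbln1*, which encodes fibulin-1, a partner of fibronectin and laminin, was the only family gene called lower under TGFβ1. In B73, it had 3.34 CPM (67 counts) and 5.78 CPM (107 counts) with Smad4 off and on under SB505124, and 1.67 CPM (39 counts) and 1.48 CPM (29 counts) under TGFβ1. In B87, it had 5.66 CPM (129 counts), 7.11 CPM (171 counts), 3.43 CPM (69 counts) and 1.22 CPM (24 counts). In Smad4-on cells the TGFβ1 and SB505124 libraries did not overlap, whereas in Smad4-off cells the highest TGFβ1 library (3.43 CPM) lay just above the lowest SB505124 library (3.34 CPM). *Fbln1* fell by 2.23 ± 0.34 (log2, SE) in Smad4-on cells (edgeR adjusted p = 0.00308) and stayed called under all 15 alternatives (1.59e-06 to 0.027). In Smad4-off cells the difference was −0.84 ± 0.31 (edgeR adjusted p = 0.133). The *Smad4* effect was 0.54 ± 0.30 under SB505124 and −0.84 ± 0.35 under TGFβ1, neither of which passed (edgeR adjusted p = 0.514 and 0.203). Their difference, the interaction, was −1.39 ± 0.46 with the same sign in both lines, and was not called (edgeR adjusted p = 0.337). It was the only interaction of the 9 genes with an unadjusted p under 0.05.

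*Fbln5* and *Efemp2* encode the fibulins that guide lysyl oxidase and elastin during elastic fiber assembly. *Fbln5* had 2.04, 3.08, 2.10 and 2.29 CPM in B73 (41 to 57 counts) and 12.6, 50.9, 17.7 and 44.5 CPM in B87 (286 to 1225 counts), in the order used above. In B87 both Smad4-on libraries exceeded both Smad4-off libraries, while B73 stayed between 2.04 and 3.08 CPM. The *Smad4* difference under SB505124 was 0.57 in B73 and 2.01 in B87 (log2). Under TGFβ1 it was 0.12 and 1.32. The *Smad4* effect was 1.52 ± 0.38 (log2, SE) under SB505124 (edgeR adjusted p = 0.141) and 0.93 ± 0.37 under TGFβ1 (edgeR adjusted p = 0.186). The former was called by DESeq2 with the line (adjusted p = 0.025) and by edgeR with no filter on low counts, in a range of 0.000349 to 1 over 15 alternatives. TGFβ1 gave −0.25 ± 0.34 with Smad4 on and 0.34 ± 0.39 with Smad4 off (edgeR adjusted p = 0.61 and 0.62). *Efemp2* was the steadiest gene of the family, at 75.4 to 115 CPM, and its log2 fold changes ran from 0.04 to 0.39 over the 4 comparisons with none called. It overlaps Mus81 on the other strand (300 to 465 counts). Whether strand was used in counting was not stated, so reads of a family gene and of a gene overlapping it on the other strand cannot be told apart. *Fbln1*, *Fbln2*, *Fbln5* and *Ltbp4* overlap no other gene in GENCODE M21.

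By the rule for a call, the lines differed at 4 of the 9 genes. *Fbln2*, *Fbln5*, *Fbn1* and *Ltbp2* were called higher in B87 than in B73 and 0 genes lower, against 3.87% and 4.5% of all genes. The log2 differences were 3.55 ± 0.28 for *Fbln5* (edgeR adjusted p = 0.000327), 3.43 ± 0.19 for *Fbn1* (edgeR adjusted p = 8.68e-05), 2.84 ± 0.46 for *Ltbp2* (edgeR adjusted p = 0.00673) and 1.07 ± 0.08 for *Fbln2* (edgeR adjusted p = 0.000274). B87 exceeded B73 in all 4 conditions for each of these, by 6.14-fold to 19.4-fold for *Fbln5* and by 7.51-fold to 15.4-fold for *Fbn1*. *Ltbp4* was also higher in B87 and passed the test, but below 2-fold (0.67 ± 0.11, edgeR adjusted p = 0.00757). The fibroblast list moved with the line as well, with *Col1a1*, *Pdgfrb* and *Pdgfra* called higher (log2 differences 6.75, 4.64 and 2.63) and *Col1a2* lower (−4.03) in B87, and the epithelial genes *Krt7*, *Krt8*, *Cdh1* and *Krt18* were called lower. The part of these differences in the family's was not tested. With 1 library per line and condition, a difference of lines and a difference of single cultures cannot be told apart.

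Some responses also differed in size between the lines, in a model with a line term for each effect that left 1 residual degree of freedom. The *Smad4* effect was larger in B87 for *Fbln5*, by 1.31 ± 0.23 in log2 units (edgeR adjusted p = 0.00234), and smaller for *Ltbp2*, by −1.14 ± 0.30 (edgeR adjusted p = 0.0336), where 1.55% and 1.04% of all genes were called higher and lower. The TGFβ1 effect was larger in B87 for *Ltbp2* by 2.04 ± 0.47 (edgeR adjusted p = 0.0197), against 0.748% of genes higher and 0.357% lower. Without the fold rule, 4 of the 9 genes passed for the *Smad4* effect and 4 for the TGFβ1 effect, against 7.4% and 5.94% of all genes. None of the 3 calls passed once the model held a single line interaction term, with edgeR adjusted p of 0.107, 0.717 and 0.563. DESeq2 with all the terms gave adjusted p of 0.133, 1 and 0.0105. For *Ltbp2* the order of the lines turned with the treatment, since the *Smad4* effect was 0.49 in B73 and 1.25 in B87 under SB505124, and 2.66 and 1.27 under TGFβ1.

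Genes that act with the family were read from 6 lists with 39 genes, of which 30 could be tested. TGFβ1 raised 10 and lowered 5 of them in Smad4-on cells, against 5.62% and 8.31% of all genes, and raised 6 and lowered 2 in Smad4-off cells, against 3.11% and 2.82%. *Smad4* restoration raised 1 and lowered 2 under TGFβ1, against 1.31% and 1.8%, and raised 0 and lowered 1 under SB505124, against 0.636% and 0.455%. Of the activators of latent TGFβ, 7 of 8 were called higher with TGFβ1 in Smad4-on cells and 3 of 8 in Smad4-off cells, where 5.62% and 3.11% of all genes were. *Itgb8*, called in neither state, changed by −1.63 ± 0.75 and 0.05 ± 0.61 (edgeR adjusted p = 0.143 and 0.938). *Thbs1*, whose product thrombospondin-1 activates latent TGFβ, had 3403, 3515, 22751 and 50829 counts in B73 and 2091, 3266, 27826 and 88601 in B87, in the order used above. It rose with TGFβ1 by 4.45 ± 0.43 (log2, SE) in Smad4-on cells (edgeR adjusted p = 0.000574) and by 3.18 ± 0.41 in Smad4-off cells (edgeR adjusted p = 0.00471). *Itgb6*, the β subunit of the epithelial integrin that frees TGFβ from its propeptide, rose by 2.56 ± 0.50 in Smad4-on cells (edgeR adjusted p = 0.00863), from counts of 28 and 17 to 237 and 51. That call was lost without the B73 SB505124 or the B73 TGFβ1 library (edgeR adjusted p = 0.0681 and 0.0544). The ligand gene *Tgfb1* changed by 0.62 ± 0.11 and 0.55 ± 0.11 with TGFβ1 (edgeR adjusted p = 0.00719 and 0.0243), below 2-fold, and *Tgfb2* and *Tgfb3* passed in none of the 4 comparisons.

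Of 5 lysyl oxidases, which cross-link elastin and collagen, *Lox* and *Loxl2* were called higher with TGFβ1 in both *Smad4* states. *Lox* had 7, 12, 95 and 269 counts in B73 and 0, 1, 17 and 32 in B87, and changed by 4.46 ± 0.47 in Smad4-on cells (edgeR adjusted p = 0.000726). *Loxl2* changed by 2.80 ± 0.17 with Smad4 on and by 1.46 ± 0.17 with Smad4 off (edgeR adjusted p = 0.000118 and 0.00305). *Eln*, the elastin gene and the chief component of the fiber, had 0 to 2 counts in B73 and 47 to 120 counts in B87. It passed in none of the 4 comparisons, and 6 of the 9 genes of its list were too low to test.

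The 2 fibulin relatives that were called were lower in each such call, in comparisons where *Fbln2* was called higher. For *Smad4* under SB505124, where *Fbln2* was also called higher, neither was called. There *Efemp1* changed by −0.55 and *Fbln7* by 0.98 (edgeR adjusted p = 0.366 and 0.496). *Efemp1*, which encodes fibulin-3, fell with TGFβ1 by 2.34 ± 0.25 in Smad4-on cells (edgeR adjusted p = 0.000812) and by 1.59 ± 0.23 in Smad4-off cells (edgeR adjusted p = 0.00695), and with *Smad4* under TGFβ1 by 1.30 ± 0.25 (edgeR adjusted p = 0.032). Its counts went from 1551 in the Smad4-off SB505124 library of B73 to 147 in the Smad4-on TGFβ1 library, and from 539 to 92 in B87. *Fbln7*, which encodes fibulin-7, fell by 3.94 ± 0.72 in Smad4-on cells (edgeR adjusted p = 0.00684), a change read from B87 (62 counts to 3), since B73 had 0 to 2 counts, and lost without either of those B87 libraries (edgeR adjusted p = 0.502 and 0.248). Of the fibrillin-binding ADAMTS group, *Adamts6* rose with TGFβ1 by 4.52 ± 0.28 with Smad4 on and 3.62 ± 0.28 with Smad4 off, and with *Smad4* under TGFβ1 by 1.27 ± 0.23 (edgeR adjusted p = 0.000114, 0.000953 and 0.0231). *Thsd4*, whose product ADAMTSL6 binds fibrillin-1 and promotes microfibril assembly, was the only one of the 30 genes called for *Smad4* in both treatments. It fell with *Smad4* by 2.36 ± 0.20 (TGFβ1) and 1.41 ± 0.19 (SB505124), with edgeR adjusted p = 0.00199 and 0.0207, and with TGFβ1 by 1.73 ± 0.20 in Smad4-on cells (edgeR adjusted p = 0.00111). Several of these calls were lost when 1 library was left out. The *Smad4* call of *Efemp1* was lost without any of 3 of the TGFβ1 libraries, all but the Smad4-on library of B87 (edgeR adjusted p from 0.114 to 0.156), and its TGFβ1 call in Smad4-off cells without the B73 TGFβ1 library (edgeR adjusted p = 0.0707). The *Smad4* call of *Adamts6* was lost without any of 3, all but the Smad4-off TGFβ1 library of B87 (edgeR adjusted p from 0.0891 to 0.152), and that of *Thsd4* under SB505124 without any of the 4 SB505124 libraries (edgeR adjusted p from 0.064 to 0.0935).

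**Figure D4:**
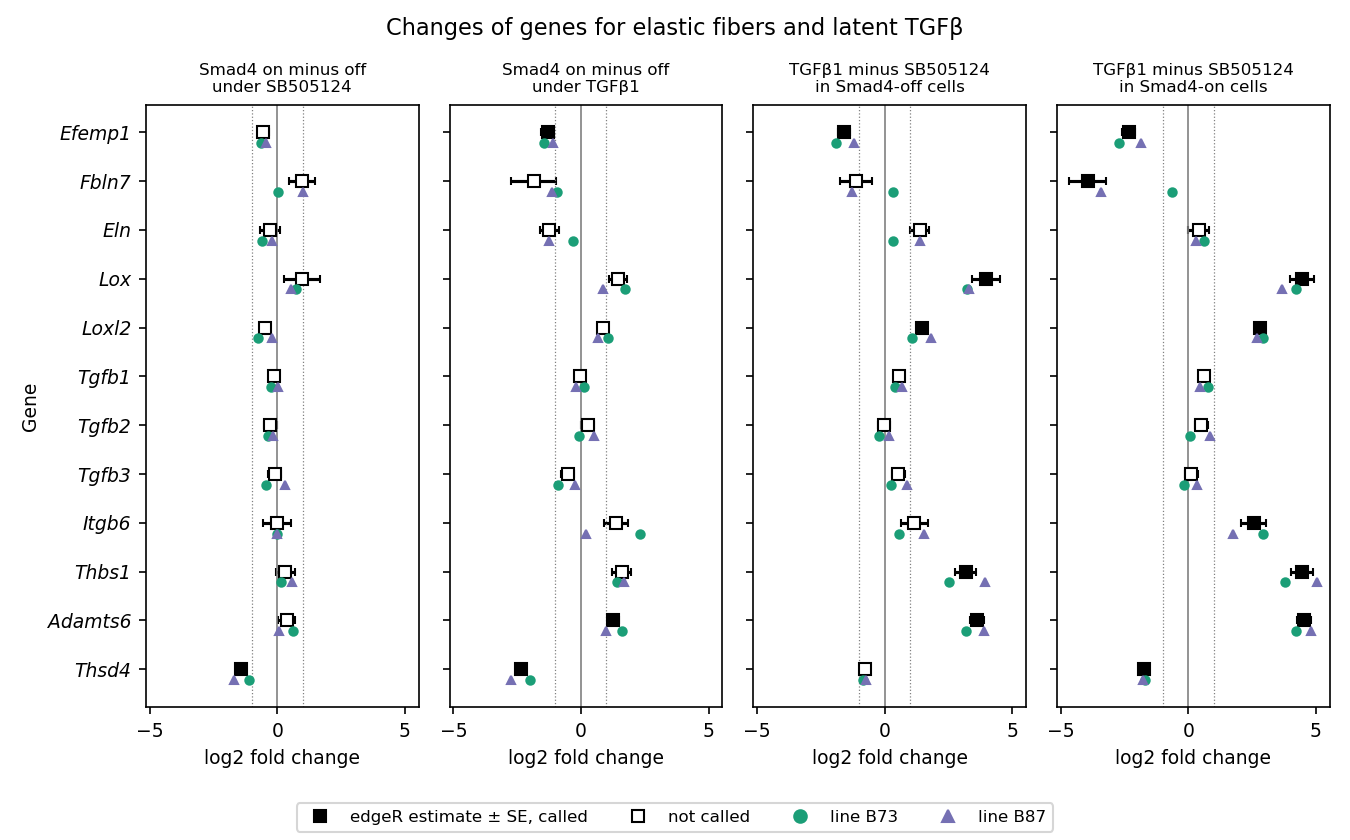
Log2 fold changes of 12 genes that act with the family, drawn as for the family itself, with squares for the edgeR estimate and its standard error (filled where called), circles for B73, triangles for B87 and dotted lines at 2-fold. *Lox*, *Loxl2*, *Thbs1* and *Adamts6* lie to the right in both TGFβ1 comparisons, and *Efemp1* and *Thsd4* lie to the left.

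The genes whose log2 CPM followed those of the called family genes most closely over the 8 libraries were drawn from 11091 genes outside the family. These were tested genes averaging 1 or more in log2 CPM, a bound that lets in genes of low level. For *Fbln2* they were *Sdc3* (Pearson r = 0.991), *Phldb1* (0.976) and *Ano1* (0.975). For *Fbn1* they were *Pigk* (0.992), *Emc3* (0.987) and *Snapc3* (0.986), and for *Ltbp2* *Golga3* (0.988), *Dst* (0.986) and *Fam69a* (0.986). For *Fbln1* they were *Zfp512b* (0.986), *Il22ra1* (0.980) and *Naprt* (0.976). These 8 points share 2 lines and 4 conditions and are not independent, and the values only describe the pattern.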

How the data were processed

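Expression was measured by RNA-seq in PDAC lines B73 and B87, in 4 groups with 1 library per line, and groups were taken from the sample labels. Per the labels and the study's methods, poly(A) RNA libraries (TruSeq Stranded) were sequenced as single-end reads of 75 bases. The authors ran FastQC 0.11.5, trimmed reads with Trimmomatic 0.36, aligned them with STAR 2.5.3a to GRCm38 (mm10) and counted them with featureCounts 1.6.3. The deposited table holds raw counts per Ensembl gene without pooling, and settings for strand and multiply aligned reads were not stated. An allele of the mouse model and an overlapping gene are not reported here. Of the 75-base stretches in transcripts of the 10 genes, 0% occurred in the same direction in another gene's transcripts, except 0.176% for *Ltbp1*. Stretches shared with transcripts of the other strand were not searched for.

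Counts were tested with edgeR 4.0.16 (R 4.3.3), using TMM scaling, filterByExpr (which kept 14301 of 53465 genes) and its quasi-likelihood F-test. The model held a term for each of the 4 groups and a term for the line. Adjusted p-values are Benjamini-Hochberg over all tested genes, and a call needs adjusted p under 0.05 and more than 2-fold. Each standard error is the absolute log2 fold change over the root of F, an approximation. Line effects use log2 CPM with a prior count of 2. Totals of 18389235 to 23440550 put 3 counts, the detection floor, at 0.125 to 0.162 CPM.

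The line named in each title pairs the libraries. The deviations of the lines from the group means correlated at 0.642 to 0.774 between groups over 14301 genes. The study used DESeq2 and named no covariate, so fits without the line are alternatives. In fits with the line, p-values measure the spread left between these cultures after the group and line terms, not the spread between the lines. For line differences in an effect, 1 residual degree of freedom was left, where 2 had been planned. The scripts were tested on simulated data.

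All 10 family genes are named. Of the 6 lists, *Eln*, *Tgfb1*, *Tgfb2*, *Tgfb3* and the 8 called genes with the largest change are named, and so is *Itgb8*, the activator not called with TGFβ1. For each called family gene, the 3 most correlated genes are given among those averaging 1 or more in log2 CPM. Members and lists were chosen with earlier results of these data known. Alternatives were edgeR without the line, DESeq2 1.42.0 (with the line or not), size factors from DESeq2 in edgeR, no filter, a minimum of 10 counts in each library, no fold rule, the 4 compared libraries alone, and leaving out each library.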

Additional observations from a re-analysis of the deposited data

Results flagged for a closer look

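For 6 of the 9 genes, an effect differed between B87 and B73 by the edgeR test of the difference itself at adjusted p under 0.05, in the model with 1 residual degree of freedom and with no fold rule. This held for 4 genes in the *Smad4* effect and 4 in the TGFβ1 effect, where 7.4% and 5.94% of all tested genes passed. The *Smad4* effect (log2, B87 minus B73) differed by 1.31 for *Fbln5* (0.35 in B73 and 1.67 in B87), by 0.33 for *Efemp2* (0.12 and 0.44), by 0.61 for *Ltbp3* (−0.31 and 0.30) and by −1.14 for *Ltbp2*. For *Ltbp2* the averages of log2 CPM, 1.57 in B73 and 1.26 in B87, differ by less than the fitted value. Its *Smad4* effect was 0.49 in B73 and 1.25 in B87 under SB505124, and 2.66 and 1.27 under TGFβ1, so the sign of the difference between lines was not the same in both treatments. The TGFβ1 effect differed by 0.87 for *Fbn1* (1.21 in B73 and 2.07 in B87), by 2.04 for *Ltbp2* (2.91 and 5.38), by 0.62 for *Ltbp3* (0.32 and 0.95) and by −0.46 for *Ltbp4* (−0.19 and −0.66). In models with a single line interaction term, none of these differences passed (edgeR adjusted p from 0.107 to 0.717). Each line and condition has 1 library, and what lies behind these differences was not tested.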

How the results depend on the processing

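The counts of called family genes depended most on the line in the model. With the line (the replicate block), 1 gene was called for *Smad4* under TGFβ1, 1 for *Smad4* under SB505124, 4 for TGFβ1 in Smad4-on cells and 3 for TGFβ1 in Smad4-off cells. Without the replicate block, the numbers were 0, 0, 1 (*Fbln1*) and 0 with edgeR and 0, 0, 2 (*Fbln1* and *Ltbp2*) and 1 (*Ltbp2*) with DESeq2. For *Smad4* under TGFβ1, the count was 2 with no filter and with only the 4 compared libraries, where *Ltbp2* joined *Fbln2*. For *Smad4* under SB505124, it was 2 with no filter and with DESeq2 and the line, where *Fbln5* joined. Without the fold rule, 7 genes passed for TGFβ1 in Smad4-on cells. Leaving out 1 library at a time gave 4 to 5 genes for TGFβ1 in Smad4-on cells, where *Ltbp1* joined without the B87 SB505124 library and *Ltbp3* without the B73 TGFβ1 library, and 1 to 3 genes for TGFβ1 in Smad4-off cells, with *Fbln2* alone called without the B87 SB505124 or the B87 TGFβ1 library of that state. *Fbln2* was called in that and the other 3 comparisons whichever library was left out. For the line difference in the *Smad4* effect (2 genes), the count was 0 with DESeq2, 0 with a single line interaction term, 1 with at least 10 counts in every library and 4 without the fold rule. For that in the TGFβ1 effect (1 gene), it was 0 with a single interaction term and 4 without the fold rule. The single-term fits were chosen after seeing the data. Leaving out libraries there could not be run, because no residual degrees of freedom remained. Where a cause of a change is not named by the setting itself, the cause was not tested.

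Of the 864 log2 fold changes recomputed under alternatives, 765 kept their direction and side of the threshold, 53 no longer passed, 19 newly passed and 27 changed sign, all of them differences that had not been called. CPM without TMM factors moved 2 of 40 group means by more than the spread between lines. Depth limits *Ltbp2* under SB505124 (11 to 51 counts), *Fbln1* (24 to 171 counts) and *Fbn2* (0 counts).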

Other observations

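Markers of other cell types also responded to the treatments, although the cultures had been passaged to remove non-tumor cells. *Cdh5*, an endothelial cadherin gene, had 0 to 4 counts under SB505124 and 16 to 54 counts under TGFβ1, and was called higher in Smad4-on and Smad4-off cells (log2 fold changes 3.79 and 4.08, edgeR adjusted p = 0.00177 and 0.0117). *Kdr*, the gene of a VEGF receptor, rose with TGFβ1 in Smad4-off cells by 2.02 (edgeR adjusted p = 0.00615) and fell with *Smad4* under TGFβ1 by 3.35 (edgeR adjusted p = 0.00289). It had 141 and 506 counts in the Smad4-off TGFβ1 libraries of B73 and B87 and 10 and 51 in the Smad4-on TGFβ1 libraries. *Pecam1* and *Tek*, which mark endothelium as well, had at most 5 and 3 counts in any library. Of the 6 epithelial markers, 2 were called lower and 0 higher with TGFβ1 in Smad4-on cells, where 8.31% and 5.62% of all genes were, and the list's median log2 fold change was −0.29. *Cdh1* and *Krt19* fell by 2.31 and 2.33 in log2 units (edgeR adjusted p = 0.00936 and 0.000454). *Krt8*, *Krt18*, *Krt7* and *Epcam* were not called, at 0.20, 0.52, −0.19 and −0.39.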
